A study of Arabidopsis thaliana with 12 samples.

Results

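The genes described here are 10 Arabidopsis thaliana genes of the cytokinin pathway, out of 33557 genes in the deposited RNA comparison. They are the 3 isopentenyltransferase genes IPT3 (AT3G63110), IPT5 (AT5G19040) and IPT7 (AT3G23630), and the 7 type-A response regulator genes ARR3 (AT1G59940), ARR4 (AT1G10470), ARR5 (AT3G48100), ARR6 (AT5G62920), ARR7 (AT1G19050), ARR15 (AT1G74890) and ARR16 (AT2G40670). All 10 were found by identifier, and each has a locus of its own. They were chosen by name with the RNA levels and peak lists of these samples already known, the absent H3K4me2 peak over IPT5 among them. Their values are therefore a description, and the q-values quoted are those of the authors' comparison over all tested genes.

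Leaves of the Columbia accession (Col-0), from rosettes 4 weeks old grown under 16 h of light and 8 h of dark, at 22 °C and 20 °C, were compared between 3 genotypes: the wild type, the atx3/4/5 mutant and the sdg2 mutant. ATX3, ATX4, ATX5 and SDG2 belong to the family of enzymes that methylate lysine 4 of histone H3. RNA was sequenced from 2 libraries each of wild type and atx3/4/5. H3K4me2 was profiled by chromatin immunoprecipitation in wild type and atx3/4/5, and H3K4me3 in these and in sdg2, with 1 library per genotype and mark. The mutant alleles, and how many plants a library holds, are not given in the sources used here.

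Cytokinins are hormones that promote cell division and delay leaf senescence. Isopentenyltransferases catalyse the first step of their synthesis by attaching an isoprenoid side chain to adenine nucleotides. Membrane histidine kinases perceive the hormone, phosphotransfer proteins carry the phosphate to the nucleus, and type-B response regulators then activate transcription. The type-A response regulator genes are among their direct targets, and type-A proteins dampen the signal again. H3K4me3 lies mainly at the beginnings of transcribed genes, and H3K4me2 also covers the bodies of genes and weakly transcribed genes.

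RNA levels are FPKM values (fragments per length of transcript and per size of library), and the libraries of a genotype were combined by the authors into 1 value, so no level below has a spread. RNA depth and ChIP depth are unknown. None of the targeted genes had a q under 0.05 between the genotypes. The authors' deposited table lists ATX3 (AT3G61740) at an FPKM of 4.17 in wild type and 4.38 in atx3/4/5. ATX4 (AT4G27910) was at 1.05 and 2.88, higher in the mutant (q = 0.0541 in the authors' deposited table), and ATX5 (AT5G53430) at 3.93 and 3.76. The part of each gene that the mutations disrupt is not given, so these values check no label. For the tissue label, the 5 mesophyll genes checked ranged from 502 to 16497 FPKM in wild type and the 5 root genes from 0 to 0.412 in the authors' deposited table. Summed over the mesophyll genes, the FPKM of the authors' deposited table was 42206 in wild type and 17246 in atx3/4/5, and 1 of the 5 was called lower. Of 5 phloem and vascular markers, with a median log2 fold change of -0.22, SUC2, the companion cell sucrose transporter gene, was called lower in the authors' deposited table (303 and 96.3 FPKM), and it makes up most of the list's sums of 323 and 115. The other 4 had a q above 0.05 in the authors' deposited table, with APL at 10.3 and 7.73 FPKM, ATHB8 at 3.45 and 2.96, SEOR1 at 4.84 and 6.16, and IRX3 at 1.09 and 1.63. The 3 senescence markers were mixed, with SAG13 called higher at 14.2 and 283 FPKM, SAG12 not tested at 0.0376 and 0.183, and SAG29 not called at 0.824 and 0.132 in the authors' deposited table (q = 0.166). Summed over 4 shoot meristem markers, the FPKM of the authors' deposited table was 6.56 and 10.9, with WUS and CLV3 at 0 in wild type. All 4 flower markers had higher values in atx3/4/5, with sums of 1.21 and 3.34 in the authors' deposited table, and none was called. The part of these differences in the results below was not tested. In such bulk tissue, fewer cells of a type and less RNA per cell cannot be told apart.

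All 6 tested type-A regulators had lower RNA levels in atx3/4/5 than in wild type, and ARR15 alone passed the threshold used here, a deposited q under 0.05. Of the 10 genes, 8 were tested by the authors, and 1 of the 8 was called, beside 10.3% of all 19021 tested genes called in either direction and 5.4% called lower. At an unadjusted p under 0.05, 3 of the 8 were lower, beside 13.7% of all tested genes, and 0 were higher in the authors' deposited table. The median log2 fold change of the 8 was -0.62, and that of all tested genes was -0.04. For the 6 tested type-A regulators alone the median was -0.93, with a range from -2.18 to -0.22. The 10 loci are short, from 1005 to 2448 bp, and short genes were lower as a class in this comparison. Centred on the median of genes of like length, the 6 regulators had a median of -0.58 and the 8 genes of -0.23.

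**Figure D1:**
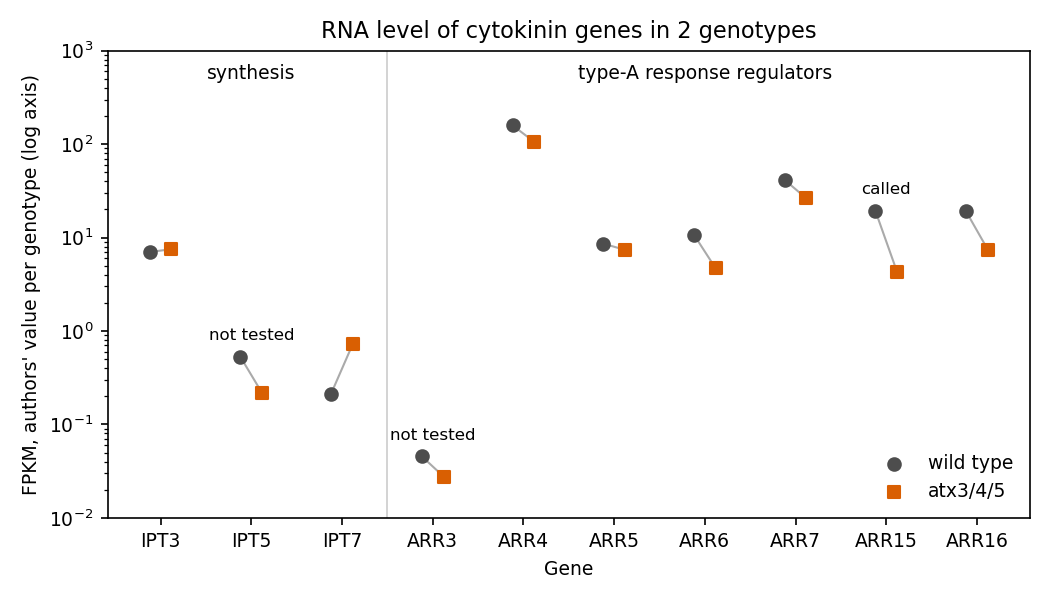
RNA level of each gene as the authors' FPKM value, on a log axis, in wild type (circles) and atx3/4/5 (squares), with 1 combined value per genotype and no error available. ARR4 is highest in both genotypes, at 159 and 106, and ARR15 is the called gene, at 19.4 and 4.28.

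Among the synthesis genes, IPT3 was the one with appreciable RNA. IPT3, known as a nitrate-responsive gene of the phloem, had an FPKM of 7.01 in wild type and 7.51 in atx3/4/5 in the authors' deposited table (q = 0.921). IPT7, known in Arabidopsis as a target of the meristem factor STM, was listed at 0.214 and 0.730 there (q = 0.211). IPT5, known from root tips and lateral root primordia, was listed at 0.528 and 0.216 and was not tested in the authors' deposited table. Both IPT7 and IPT5 thus lay below an FPKM of 1 in each genotype, and no change is read from them. No synthesis gene was called in either direction in the authors' deposited table, and none had an unadjusted p under 0.05.

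ARR15, one of a pair of regulators with ARR7 that is known to act in the shoot meristem and embryo, had an FPKM of 19.4 in wild type and 4.28 in atx3/4/5 in the authors' deposited table. It fell 4.53-fold (log2 fold change -2.18, q = 0.0105 in the authors' deposited table), and 3.71% of all tested genes had a lower log2 fold change. Its locus of 1121 bp belongs to a length class with a median of -0.46, and centred on that class its log2 fold change was -1.72. ARR16, known from root and stomatal lineage cells, stood at 19.1 and 7.42 FPKM in the authors' deposited table, with a log2 fold change of -1.36 that was not called (p = 0.00955, q = 0.0722). ARR6, whose promoter serves as a cytokinin reporter in leaf protoplasts, stood at 10.7 and 4.67 there, with a log2 fold change of -1.20 in the authors' deposited table (p = 0.0273, q = 0.137). These were the 3 regulators with the lowest fold changes, and after centring on length classes ARR16 and ARR6 were at -0.90 each.

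The remaining regulators differed less between the genotypes. ARR7 was listed at 41.4 FPKM in wild type and 26.3 in atx3/4/5 in the authors' deposited table (log2 fold change -0.66, q = 0.359). ARR4, which is also known to bind the photoreceptor phytochrome B, had the highest level in both genotypes, 159 and 106 in the authors' deposited table (log2 fold change -0.59, q = 0.439). ARR4 alone made up 61.6% of the summed FPKM of the 7 type-A genes in wild type and 67.8% in atx3/4/5, where the sums were 258 and 156. ARR5, the gene behind a widely used cytokinin reporter, was listed at 8.62 and 7.39 in the authors' deposited table (log2 fold change -0.22, q = 0.807). ARR3, the closest relative of ARR4, was listed at only 0.0455 and 0.0276 and was not tested in the authors' deposited table. The order of levels in wild type was ARR4, ARR7, ARR15, ARR16, ARR6, ARR5, IPT3, IPT5, IPT7 and ARR3, and in atx3/4/5 ARR15 stood below IPT3, ARR16, ARR5 and ARR6. Without a spread between libraries it cannot be said which neighbours in these orders differ.

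Marks over the loci were read from the deposited peak lists. A gene carries a mark where a peak overlaps its locus by at least 1 bp, and a wild-type peak is absent where no mutant peak overlaps it. In wild type, 4 of the 10 genes carried both marks (IPT5, ARR7, ARR15 and ARR16), 3 carried H3K4me3 alone (ARR4, ARR5 and ARR6), 2 carried H3K4me2 alone (IPT3 and ARR3), and IPT7 carried neither in any of the 5 lists. The genes with H3K4me3 alone had FPKM values from 8.62 to 159 in wild type in the authors' deposited table. Those with H3K4me2 alone were at 0.0455 and 7.01 there. Across all nuclear genes, 54.6% carried H3K4me2 and 50.2% carried H3K4me3 in wild type.

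**Figure D2:**
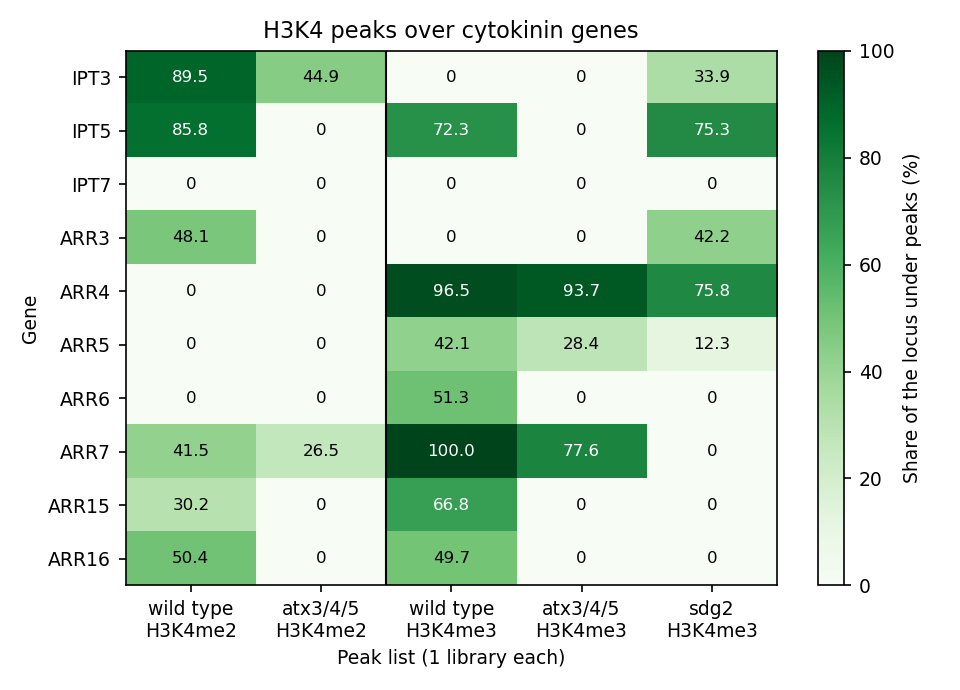
Share of each locus under peaks, in percent, for the 10 genes (rows) in the 5 peak lists (columns, 1 library each). Of the loci marked in wild type, all 6 with H3K4me2 and all 7 with H3K4me3 have a smaller covered share in atx3/4/5. Over all marked genes the median difference was also below 0, at -15.3 percentage points for H3K4me2 and -1.17 for H3K4me3.

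H3K4me2 was reduced in extent at each of the 6 marked loci in atx3/4/5. The wild-type peak was absent at 5 of the 6, beside 22.8% of the 18180 marked genes of the genome. The count is a description, since the genes were chosen with such losses known. The median covered share of the 6 loci was 49.3% in wild type, and the median difference was -46.3 percentage points. Over all marked genes the median difference was -15.3 points.

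IPT5 lay under one of the strongest H3K4me2 peaks of the wild type (chromosome 5, 6362061 to 6363494 on TAIR10). The peak has a score of 3100 in the authors' list, a value shared with other peaks that together stand at rank 9 of 20585, and covers 85.8% of the locus (chromosome 5, 6361837 to 6363413). In atx3/4/5 no H3K4me2 peak overlapped the IPT5 locus. IPT5 belongs to the highest quintile of wild-type scores, which runs from 634 to 3233, and 7.56% of the genes in it lost their peak. ARR3 belongs to the same quintile, with a wild-type peak of score 763 (chromosome 1, 22065739 to 22066391) over 48.1% of the locus and none in atx3/4/5. ARR3 and IPT5 are also the genes whose RNA the authors did not test.

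IPT3, the other gene of the set in that quintile, kept a narrower peak. Its wild-type peak of 1311 bp covered 89.5% of the locus, and the peak in atx3/4/5 was 658 bp wide and covered 44.9%. The uncovered part was the low-coordinate side of the gene. The H3K4me2 peaks over ARR15, ARR16 and ARR7 were weak in wild type, with scores of 77.9, 122 and 51.2, the last close to the lowest score of the list, 50. ARR15 and ARR16 had no H3K4me2 peak in atx3/4/5. At ARR7 the wild-type peak had no counterpart, and a peak of similar weakness lay instead over the other end of the locus, 989 bp from the low-coordinate end, where the wild-type peak had ended at 667 bp. In the lowest quintile of scores, to which ARR7 and ARR15 belong, 55.2% of genes lost their peak, and 29.0% in the quintile of ARR16.

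**Figure D3:**
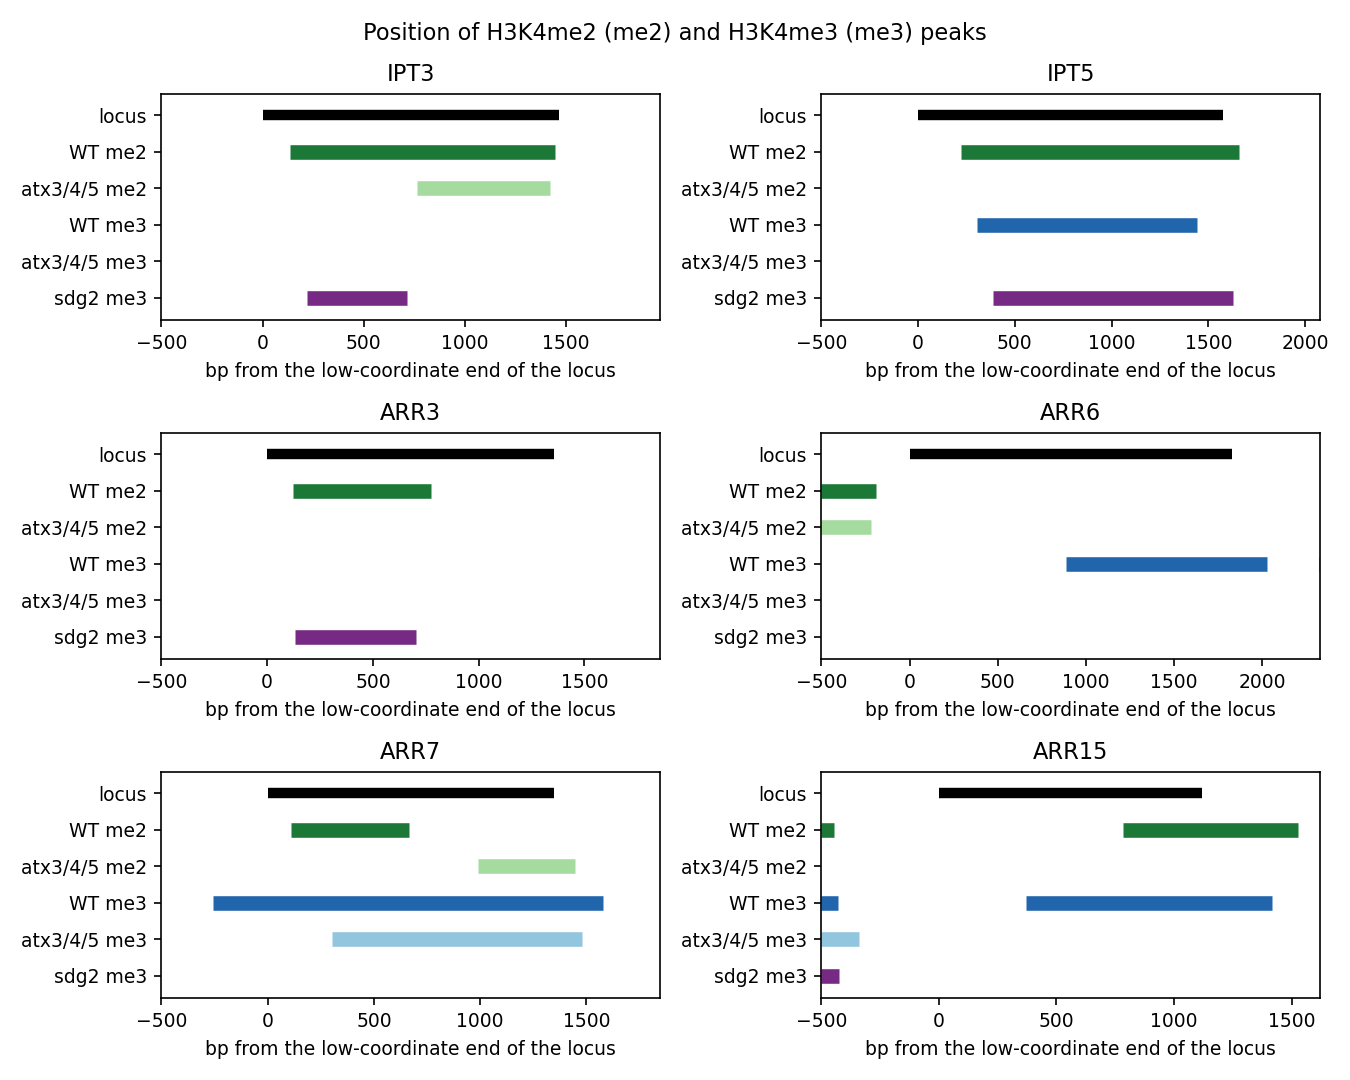
Positions of H3K4me2 (me2) and H3K4me3 (me3) peaks in the 5 lists along 6 loci, in bp from the low-coordinate end of each locus (black bar). Bars cut at the panel edges belong to peaks that extend past 500 bp from the locus and lie over neighbouring genes. At IPT5 both wild-type peaks are missing in atx3/4/5 while sdg2 has an H3K4me3 peak, and at ARR7 the H3K4me3 peak is missing in sdg2.

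H3K4me3 peaks over ARR6, ARR15, ARR16 and IPT5 were absent in atx3/4/5, and those over ARR4, ARR5 and ARR7 were kept. That is 4 of 7, beside 7.56% of the 16692 genes with the mark. The median covered share of the 7 loci was 66.8% in wild type, with a median difference of -49.7 percentage points, and over all marked genes the median difference was -1.17. ARR6 had a wild-type peak of score 611 over 51.3% of its locus (chromosome 5, 25253275 to 25254413). It lies in the quintile above the lowest, where 3.59% of genes lost their peak. The absent peaks over IPT5, ARR16 and ARR15 had scores of 227, 189 and 173, all in the lowest quintile, where 33.6% were absent.

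The kept peaks were narrower in atx3/4/5. ARR7 had a peak of 1840 bp in wild type and of 1176 bp in atx3/4/5, and the covered share of its locus was 100% and 77.6%. At ARR5 the widths were 1197 and 834 bp, and at ARR4 they were 1707 and 1607 bp. In covered share ARR4 differed least, at 96.5% and 93.7%. The rank of its peak by score within the list was 670 of 14496 in wild type and 3151 of 13622 in atx3/4/5.

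Within the set, the tested genes whose H3K4me3 peak was absent in atx3/4/5 were also those with the lowest RNA ratios. The 3 tested genes whose wild-type peak was absent (ARR15, ARR16 and ARR6) had log2 fold changes from -2.18 to -1.20. The 3 whose peak was kept (ARR7, ARR4 and ARR5) ranged from -0.66 to -0.22. The genes were chosen with RNA levels and peaks known, so this split is a description. It was not seen in all related genes outside the set. The tested ones with an absent H3K4me3 peak, CRF1 and AHK4, were at 0.09 and 0.37. The type-A gene ARR9, with a kept peak, was at -1.06. The wild-type peaks of ARR15, ARR16 and ARR6 lay in score quintiles 1, 1 and 2, and those of ARR7, ARR4 and ARR5 in 5, 5 and 2. The part of peak score in the split was not tested. IPT3 and IPT7, with no H3K4me3 in wild type, were at 0.10 and 1.77. IPT7 lay below an FPKM of 1 in each genotype, so no change is read from it. Between absent and kept peaks the same order is seen in the genome, where genes were not matched for peak score. There, 1031 tested genes whose H3K4me3 peak was absent had a median log2 fold change of -0.84, and 20.4% were called lower. For 14427 genes with a kept peak the values were 0.03 and 3.52%. For H3K4me2 the medians over all genes were -0.32 where the peak was absent and 0.14 where it was kept. Whether a mark or the RNA changed first cannot be read from these data, which hold 1 time point.

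**Figure D4:**
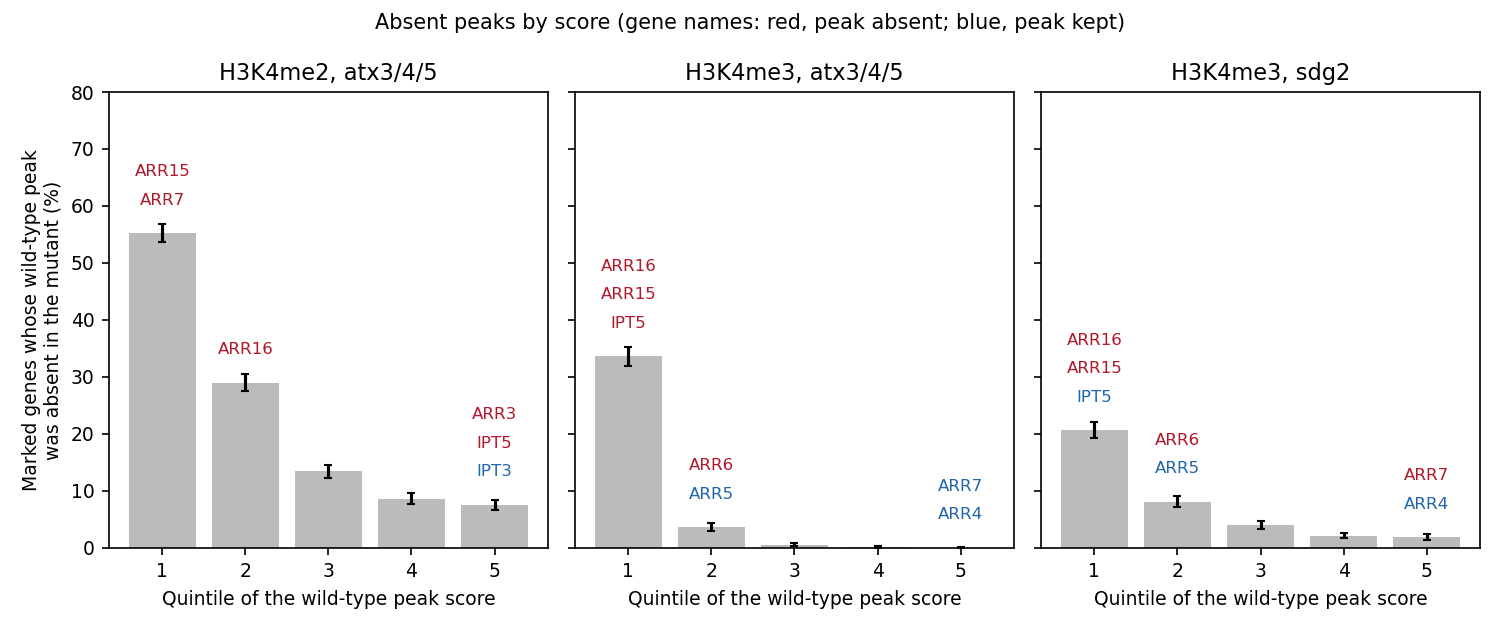
Share of marked genes whose wild-type peak was absent in the mutant, in percent, by quintile of the wild-type peak score (1 lowest, 5 highest), with exact 95% intervals that cover counting error only. Gene names stand over the quintile of their own peak, and ARR6 is the one gene of the set outside the lowest quintile whose H3K4me3 peak was absent in atx3/4/5, beside 3.59% of the genes in its quintile.

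In sdg2 the H3K4me3 peaks over ARR6, ARR7, ARR15 and ARR16 were absent, and those over IPT5, ARR4 and ARR5 were kept. The count was 4 of 7, beside 7.34% of all marked genes. The sdg2 and atx3/4/5 lists are compared with the same wild-type library, so their losses are not independent of each other. The median difference in covered share of the 7 loci was -49.7 percentage points, and -10.7 over all marked genes. The median peak width was 675 bp in the sdg2 list and 1080 bp in wild type, and 4 of the 5 mesophyll markers had no H3K4me3 peak in sdg2 that met their wild-type peak. ARR7 shows the largest difference of the 10 loci, from 100% covered in wild type to no peak in sdg2. Its wild-type peak has a score of 1681 and falls in the highest quintile, where 1.86% of genes lost theirs in sdg2. In atx3/4/5 the same locus was covered over 77.6%. ARR4 was covered by 2 separate peaks in sdg2, over 75.8% of the locus, and ARR5 by a weak peak of 300 bp over 12.3%.

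At some loci H3K4me3 peaks covered as large a share in the sdg2 list as in wild type, or a larger one. IPT5 was covered by H3K4me3 over 72.3% of its locus in wild type, 75.3% in sdg2 and 0% in atx3/4/5. IPT3 and ARR3, which had no H3K4me3 peak in wild type or in atx3/4/5, had one in sdg2. The IPT3 peak is 497 bp wide (chromosome 3, 23318296 to 23318792) and the ARR3 peak 573 bp (chromosome 1, 22065749 to 22066321). Both lie within the wild-type H3K4me2 peak of the gene. Of the 3 genes without H3K4me3 in wild type 2 thus had a peak in sdg2, beside 8.15% of the 16586 genes without one. Their scores, 167 and 279, were below the list's median of 401. AT3G63095, 1817 bp from IPT3, also had no H3K4me3 peak in wild type or atx3/4/5, and 78.0% of its locus was covered in sdg2. No RNA of sdg2 was analysed here.

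The neighbours of all 10 genes were read in the same way. Of the 20 nearest neighbours, 12 carried H3K4me3 in wild type, and the peak was absent over 1 of them in atx3/4/5 and over 0 in sdg2, beside 7.56% and 7.34% of all marked genes. H3K4me2 was carried by 13, and the peak was absent over 4 in atx3/4/5, beside 22.8%. ARR6 sits 149 bp from AT5G62910 and 675 bp from AT5G62930. Both kept H3K4me3 in both mutants, with covered shares of 51.6% in wild type, 58.1% in atx3/4/5 and 40.0% in sdg2 for AT5G62910, and of 35.0%, 29.4% and 42.1% for AT5G62930. AT1G74880 (NdhO), 512 bp from ARR15, likewise was covered over 89.6% in wild type and 89.3% in atx3/4/5. The neighbour without its H3K4me3 peak was AT1G10460 (GLP7), beside ARR4, which had neither mark in atx3/4/5. Both neighbours of IPT5, AT5G19030 and AT5G19050, had no H3K4me2 peak in atx3/4/5 but kept H3K4me3.

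RNA of the neighbours went in both directions. The defence regulator EDS1 (AT3G48090), 646 bp from ARR5, rose from 5.43 to 25.0 FPKM in the authors' deposited table (q = 0.00184), and its H3K4me3 covered share was 64.6% in wild type and 82.5% in atx3/4/5. ARR5 itself was at 8.62 and 7.39 in the authors' deposited table. On the left of ARR3, AT1G59930 rose from 4.62 to 19.8, and on its right AT1G59950 fell from 5.52 to 0.339 in the authors' deposited table (q = 0.0186 and 0.0215). Neither of those had a peak of either mark in any list.

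Further genes of the pathway were counted by role. Of 63 further genes listed by role, 42 were tested, of which the authors' deposited table called 3: higher levels for 2 and a lower level for 1, beside 10.3% of all tested genes. Their median log2 fold change was -0.16, and an unadjusted p under 0.05 was reached by 3 with higher and 7 with lower levels in the authors' deposited table, the latter beside 13.7% of all tested genes. CRF6, a cytokinin response factor also known from stress, rose from 8.56 to 45.1 FPKM (q = 0.00184), and the glycosyltransferase gene UGT85A1 from 8.72 to 40.8 in the authors' deposited table (q = 0.00184). AHP3, a phosphotransfer protein gene, fell from 52.8 to 19.1 there (q = 0.0397 in the authors' deposited table). All 5 tested phosphotransfer genes had ratios below 1, with a median log2 fold change of -1.47, beside a median of -0.33 for genes of the length class of AHP3. The 3 receptor genes had ratios above 1, the highest log2 fold change being 0.64 for AHK2, but their length class had a median of 0.68, so that centring turns all 3 below 0.

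In the remaining roles no gene was called in the authors' deposited table. The largest log2 fold changes, among genes at 1 FPKM or more in each genotype, were -1.32 for LOG1, an enzyme that frees active cytokinin (5 tested, median -1.03), and -0.88 for CKX6, a cytokinin oxidase. For the transporter PUP14 the value was -1.09, for the type-B regulator ARR11 -0.85, for GATA21 -0.67 and for IPT9, a tRNA-modifying enzyme, 0.41. The type-A regulators outside the set were ARR9, at 31.0 and 14.8 FPKM (q = 0.145), ARR8, at 4.62 and 4.14 (q = 0.892), and ARR17, listed at 0.116 and 0 and not tested, in the authors' deposited table. With them, all 8 tested type-A regulators had ratios below 1. The length classes of these genes had medians below 0 as well, from -0.46 to -0.08, and the median of all tested genes was -0.04. Genes of side-chain hydroxylation and the type-C regulators were not tested. Among 5 nitrate genes 2 were called, beside 10.3% of all tested genes. The nitrite reductase gene NIR1 fell from 200 to 64.0 FPKM in the authors' deposited table (q = 0.0105). The transporter gene NRT2.1 fell from 6.67 to 1.25 there (q = 0.00184). NIA2 was at 272 and 215 in the authors' deposited table, NRT1.1 at 96.8 and 61.8, and NIA1 at 14.7 and 18.4, none of them called. The log2 fold change of the nitrate-responsive IPT3 was 0.10.

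**Figure D5:**
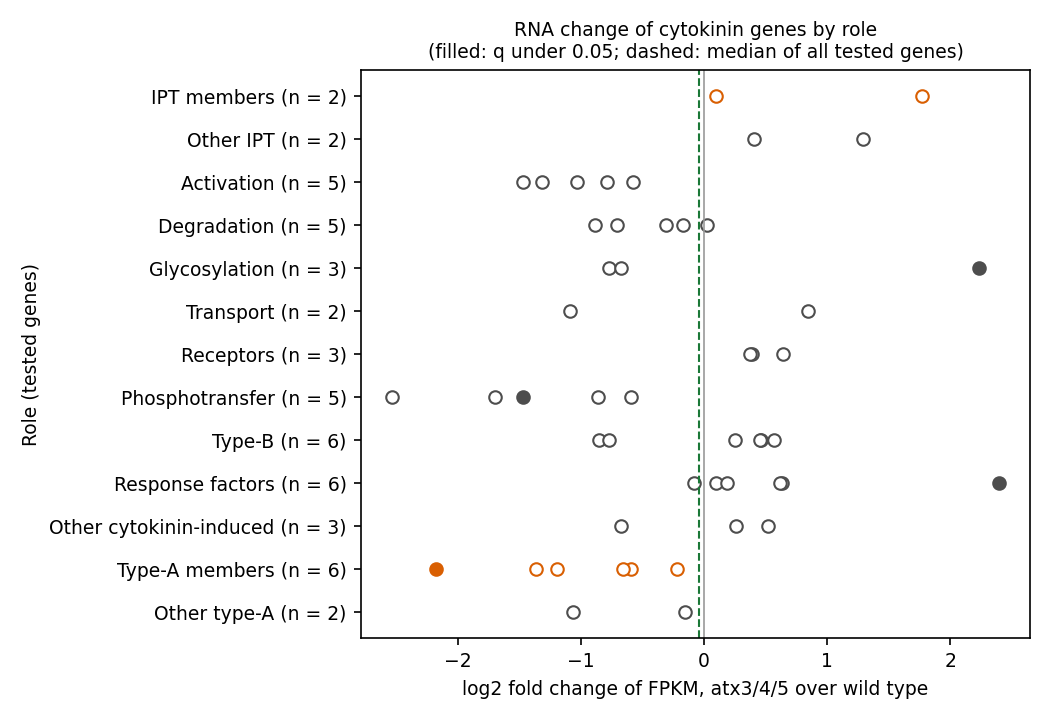
Log2 fold change of FPKM, atx3/4/5 over wild type, for the tested genes of each role of the cytokinin pathway, with 1 point per gene and no error available. Filled points have a deposited q under 0.05, and all 8 type-A points, members and others, lie below 0. Their length classes had medians from -0.46 to -0.08.

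Marks over these other genes were read in the same way. Of 35 that carried H3K4me2 in wild type, 5 had no counterpart in atx3/4/5 (LOG8, CKX1, CKX3, AHK4 and GATA21), beside 22.8% of all marked genes, and ARR20 had a peak in atx3/4/5 alone. Of 33 with H3K4me3, the wild-type peak was absent for 3 in atx3/4/5 (IPT1, AHK4 and CRF1) and for 3 in sdg2 (ARR9, GATA21 and GATA22), beside 7.56% and 7.34%. At ARR14 the wild-type peak met an sdg2 peak outside the locus, and the covered share of the locus itself was 50.5% in wild type and 0% in sdg2. IPT1, a further synthesis gene, kept H3K4me2 over 51.9% of its locus (80.4% in wild type) and, like IPT5, kept H3K4me3 in sdg2, where 82.1% was covered. The receptor gene AHK4 had neither mark in atx3/4/5, as for IPT5, ARR15 and ARR16, with an RNA level of 1.54 and 1.99 FPKM in the authors' deposited table. ARR8 and ARR9 kept H3K4me3 in atx3/4/5, and ARR9 had none in sdg2. The difference between these genes and the 10 genes above was not tested, since the latter were chosen with the losses known.

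Genes most like ARR15 and IPT5 were sought over 7 values, the log2(FPKM + 1) in 2 genotypes and the covered share in 5 lists, each divided by its SD over 15658 tested genes with a locus of their own. Closest to ARR15 were AT5G02020 (SIS, distance 0.41), AT5G56840 (0.52), ARR16 itself (0.90), AT1G76620 (0.91) and AT2G04790 (0.95). AT5G02020 was at 27.1 and 6.85 FPKM in the authors' deposited table, with an H3K4me3 covered share of 61.6% in wild type and none in either mutant. Closest to IPT5 were AT1G02650 (0.49), AT3G03170 (0.51), AT3G46150 (0.53), AT1G49450 (0.57) and AT1G61930 (0.72). All 5 were covered by both marks over at least 77.4% of the locus in wild type, by neither in atx3/4/5, and by H3K4me3 in sdg2. Covered shares and RNA levels were the values searched, so the likeness of these genes to ARR15 or IPT5 follows from the search.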

How the data were processed

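H3K4 ChIP-seq (5 libraries, 1 peak list each, with 1 input per genotype that both marks share; inputs not analysed here) and RNA-seq (2 libraries per genotype) were analysed from the deposited files. Per the submitters' processing notes, Bowtie 1.0.1, MACS 1.4.2, TopHat2 2.0.10, Cufflinks 2.2.1 and the TAIR10 build were used, with no role given in the sources used here. The authors' deposited RNA table holds FPKM values and p-values and q-values per gene (the latter equal to a Benjamini-Hochberg adjustment over tested genes), with libraries combined, so no test was run here. Nothing says whether the libraries came from separate plants, so the authors' p-values may measure technical spread. The deposited peak lists give a score per peak, used only to rank or filter within a list. The fold change is the log2 ratio of FPKM without a pseudocount. Length classes are deciles of locus length, with medians over genes at an FPKM of 1 or more in both genotypes. The members and lists were chosen with earlier results of these data known. Named further genes are those called, those with an absent or gained peak in atx3/4/5, and otherwise the largest change per role. Gene names come from RefSeq (TAIR10.1), which matched 32810 of 33557 identifiers. Sequences were not used here, and the planned comparison of proteins and promoters was not made. No source used here says whether counting used strand, and 0 of the 10 genes share a locus with another. The intervals in the plot by score are exact binomial ones. The overlap, coverage and absence procedures were tested on simulated data. Python 3.11.15 and pandas 2.3.3 were used.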

Additional observations from a re-analysis of the deposited data

Results flagged for a closer look

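At IPT5 the H3K4me3 covered share of the locus moved in opposite directions in the mutants. It differed from wild type by -72.3 percentage points in atx3/4/5 and by 3.04 in sdg2, each from 1 library, and the difference between the mutants was not tested.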

How the results depend on the processing

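The number of the 10 genes called in RNA was 1 at a q under 0.05, 2 at 0.1 (with ARR16), 0 at 0.01 and 3 at an unadjusted p under 0.05. Of all tested genes, 10.3% were called at a q under 0.05, and 13.7% were lower at an unadjusted p under 0.05. The shares of all tested genes at 0.1 and 0.01 were not computed, so nothing is read from the counts there. The median log2 fold change of -0.62 was -0.61 with a pseudocount of 1, -0.66 over those at 1 FPKM or more in each genotype, -0.56 after centring on all genes, -0.23 after centring within deciles of locus length, and -0.69 with the 2 untested genes, an alternative chosen after seeing the data. None of the 40 single-gene values changed sign. With peaks of a score of at least 100 only, 0 of the 10 genes had an H3K4me2 peak in atx3/4/5, against 2. With that minimum in the wild type alone, the H3K4me2 peak was absent there for 3 of 4 marked genes, beside 16.9% of all marked genes. The main setting gave 5 of 6, beside 22.8%. With the minimum in both lists it was 4 of 4, the peak over IPT3 included, beside 33.9%. The median difference in H3K4me2 covered share was -27.7 points with loci extended by 500 bp and -68.1 with the score minimum, and for H3K4me3 it was -40.6 with extended loci in each mutant. The absent H3K4me3 peaks in atx3/4/5 were the same 4 genes under all 3 alternatives. In sdg2, ARR5 joined the absent peaks when 50% of the wild-type peak had to be covered or a score of 100 was required in both lists, settings under which the share of all marked genes went from 7.34% to 21.5% and 11.4%. The cause of these shifts was not tested. No paired analysis was possible because the deposited table gives 1 value per genotype, and for the same reason no library could be left out. ChIP depth is unknown, so a weak peak may be missing for want of reads.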
